A study of Mus musculus with 4 samples.

Results

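The RNA of 9 transcription factors that direct the formation of fat cells was followed in the mammary fat pad (MFP) of aged and young mice. The factors are Pparg, Cebpa, Cebpb, Cebpd, Klf15, Ebf1, Ebf2, Zfp423 and Nr1h3, taken by gene symbol from a list of known adipogenic regulators, and all 9 were found among the 55487 genes counted. Whole MFP tissue of C57BL/6J mice (the strain in the labels; the study's methods give female animals) was sequenced as total RNA depleted of ribosomal RNA, from 2 aged samples (14 months) and 2 young samples (8 weeks). The labels name no transgene or treatment, and age is the only difference they give. The labels do not say whether a sample was 1 animal or a pool. The tissue was lysed whole, so a lower number of cells of a type and less RNA per cell cannot be told apart. The comparison asks whether the factors that set adipocyte identity differ with age.

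Fat cells form in steps that these factors order. Zfp423, Ebf1 and Ebf2 act in committed precursors, and C/EBP beta and C/EBP delta (from Cebpb and Cebpd) are induced early by hormones. They switch on PPARG and C/EBP alpha (from Pparg and Cebpa), which maintain each other and activate the genes of the mature adipocyte. KLF15 is a factor induced by glucocorticoids that raises the glucose transporter Slc2a4, and Nr1h3 encodes LXR alpha, a nuclear receptor for oxysterols. PPARG and LXR alpha bind DNA together with the receptor RXR.

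The start regions of the factors show what kinds of promoters are annotated for them. Counts per gene do not separate the starts of a gene, so which start is used in this tissue is not known. The RefSeq table of GRCm38.p6 held start regions for 7 of the 9 factors, with none for Cebpd and Ebf2. Each region runs from 250 bases before to 50 bases after a start and is written 5′ to 3′ on the strand of the gene. Capitals mark matches, on either strand, to motifs that were searched by their letters. The motif of the C/EBP factors was TTGCNNAA, that of the EBF factors CCCNNGGGA and that of the glucocorticoid receptor ACANNNTGT. The CCAAT box was searched as such, the core of the cAMP response element as TGACG and the E-box as CACGTG. A nuclear receptor site was searched as AGGTCA, the KLF family site as CCACCC, the TATA box as TATAAA and the STAT site as TTCNNNGAA. Shown are 2 of the 3 Pparg starts, because Pparg had the largest difference between the ages, and the starts of Cebpa, Cebpb and Klf15.
Pparg, upstream start, chr6:115360894-115361193, plus strand: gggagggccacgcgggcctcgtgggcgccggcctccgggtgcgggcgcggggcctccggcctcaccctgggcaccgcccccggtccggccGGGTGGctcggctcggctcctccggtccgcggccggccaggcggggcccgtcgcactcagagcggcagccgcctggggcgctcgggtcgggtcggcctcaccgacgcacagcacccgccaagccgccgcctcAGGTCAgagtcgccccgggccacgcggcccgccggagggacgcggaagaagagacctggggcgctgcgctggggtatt
Pparg, downstream start, chr6:115421816-115422115, plus strand: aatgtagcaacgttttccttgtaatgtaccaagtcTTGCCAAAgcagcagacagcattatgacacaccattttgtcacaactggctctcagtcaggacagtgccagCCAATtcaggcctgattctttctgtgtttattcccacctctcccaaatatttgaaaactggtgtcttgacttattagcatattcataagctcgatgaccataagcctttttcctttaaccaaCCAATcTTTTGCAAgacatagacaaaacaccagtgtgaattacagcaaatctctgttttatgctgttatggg
Cebpa, chr7:35119043-35119342, plus strand: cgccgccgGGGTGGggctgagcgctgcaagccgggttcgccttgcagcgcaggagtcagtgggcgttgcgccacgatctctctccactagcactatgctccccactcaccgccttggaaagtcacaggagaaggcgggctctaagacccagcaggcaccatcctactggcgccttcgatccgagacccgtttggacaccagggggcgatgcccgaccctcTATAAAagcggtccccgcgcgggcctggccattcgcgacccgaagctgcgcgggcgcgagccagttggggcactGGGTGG
Cebpb, chr2:167688665-167688964, plus strand: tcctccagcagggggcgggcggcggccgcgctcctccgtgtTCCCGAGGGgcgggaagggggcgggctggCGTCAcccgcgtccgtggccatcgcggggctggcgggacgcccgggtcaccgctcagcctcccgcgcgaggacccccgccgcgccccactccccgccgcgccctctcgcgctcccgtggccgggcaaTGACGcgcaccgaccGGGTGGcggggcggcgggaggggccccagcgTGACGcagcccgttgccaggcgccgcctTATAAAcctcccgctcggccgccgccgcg
Klf15, chr6:90462326-90462625, plus strand: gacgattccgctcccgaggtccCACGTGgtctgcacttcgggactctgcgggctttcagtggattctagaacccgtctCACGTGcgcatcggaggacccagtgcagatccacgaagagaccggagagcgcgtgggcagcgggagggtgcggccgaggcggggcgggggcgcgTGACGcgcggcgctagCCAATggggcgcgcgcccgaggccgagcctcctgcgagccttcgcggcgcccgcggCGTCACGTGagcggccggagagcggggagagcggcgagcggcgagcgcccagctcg

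The starts of Pparg were unlike each other. The upstream start was 80.3% G and C and held 1 nuclear receptor match and 1 KLF match. The downstream start, where the transcript with 505 codons begins in GENCODE M21, was 40.3% G and C and held 2 C/EBP matches and 2 CCAAT matches. Of all 32851 start regions, 10.8% held TTGCNNAA, 37.4% CCAAT, 16.3% AGGTCA and 31.5% CCACCC, and their median G and C content was 52.7%. That transcript is known as the adipocyte form of PPARG, so its share of the counts would be of interest, but counts per gene do not give it. The Cebpb start held 3 TGACG matches, 1 EBF match, 1 KLF match and a TATAAA match, where 20.8% of all regions held TGACG, 6.56% CCCNNGGGA and 13.6% TATAAA. The Klf15 start held 3 E-box matches, found in 7.15% of all regions, and the last of them overlaps a TGACG match. Neither the glucocorticoid receptor motif (6.85% of all regions) nor the STAT motif (8.30%) had a match in the 12 start regions of the factors. These are matches of letters in a window and no measure of binding.

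The 4 libraries held between 68803300 and 98402400 counts (6 significant digits), at which 3 counts correspond to between 0.0337 and 0.0407 CPM (counts scaled to the TMM-adjusted size of the library). Each factor was far above this level, with 878 to 46894 counts per library, and all 9 passed the filter on low counts. Adipocyte markers were high in all libraries, with 6826 to 10717 CPM summed over 10 genes. Young replicate 1 stood apart. Its 8 B cell markers summed to 623 CPM and its 8 T cell markers to 767 CPM, against 3.71 to 65.1 CPM and 6.87 to 65.1 CPM in the other libraries. Skeletal muscle markers also differed, at 39046 and 62025 CPM in aged and 10120 and 14163 CPM in young MFP, all 12 of them above in both aged samples. Because of the lymphocyte markers, each difference of the 9 factors whose direction depends on that library is also given without it.

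**Figure D1:**
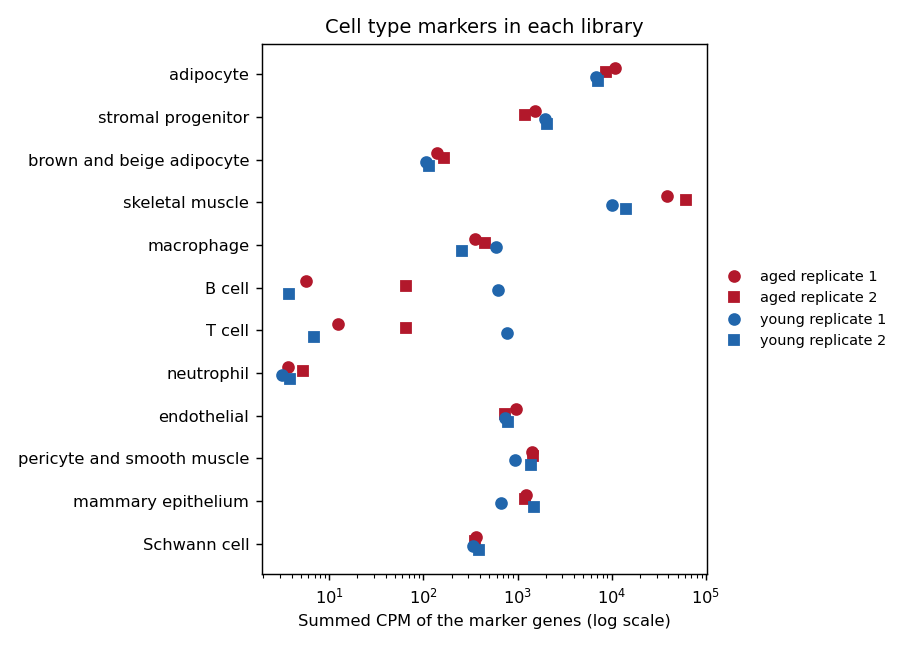
Summed CPM (log scale) of the markers of 12 cell types, 1 point per library, with red for aged, blue for young, circles for replicate 1 and squares for replicate 2. Young replicate 1 has B cell and T cell markers at 623 and 767 CPM, above the other 3 libraries, and both aged libraries have higher skeletal muscle markers than both young ones.

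Of the 9 factors, 8 had a higher estimate in aged than in young MFP and Nr1h3 a lower one, but 0 of the 9 reached the threshold of 0.05 after adjustment. In edgeR's quasi-likelihood test 0 of 22485 genes (0%) reached it, with 2371 at an unadjusted p below it, and the smallest adjusted p was 0.360. The median log2 fold change of the 9 factors, aged over young, was 0.27, beside -0.04 for all genes tested, of which 47.0% were higher in aged MFP. For Pparg, Cebpa and Klf15, 3 of the 9 factors, the aged samples both exceeded the young ones, as they did for 23.3% of all genes. Only Nr1h3 among the 9 had both aged samples below both young samples, where 22.8% of all genes did. With 9 factors, 3 of them is close to the share over all genes. The 8 higher estimates rested in part on single libraries. Without young replicate 1 the estimates of 5 factors were higher and those of 4 lower in aged MFP, beside 52.0% of all genes higher. Without aged replicate 1 the numbers were again 5 and 4, beside 42.9% of all genes higher. Cebpb, Cebpd and Ebf2 turned lower without young replicate 1, and Ebf1, Ebf2 and Zfp423 without aged replicate 1. At an unadjusted p below the same threshold edgeR placed 1627 genes (7.24%) higher with age and 744 (3.31%) lower, and 1 factor, Pparg, was among the higher and 0 among the lower. DESeq2, used as an alternative, called 710 of its genes (3.17%) higher with age and 155 (0.692%) lower, and 0 of the 9 factors.

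**Figure D2:**
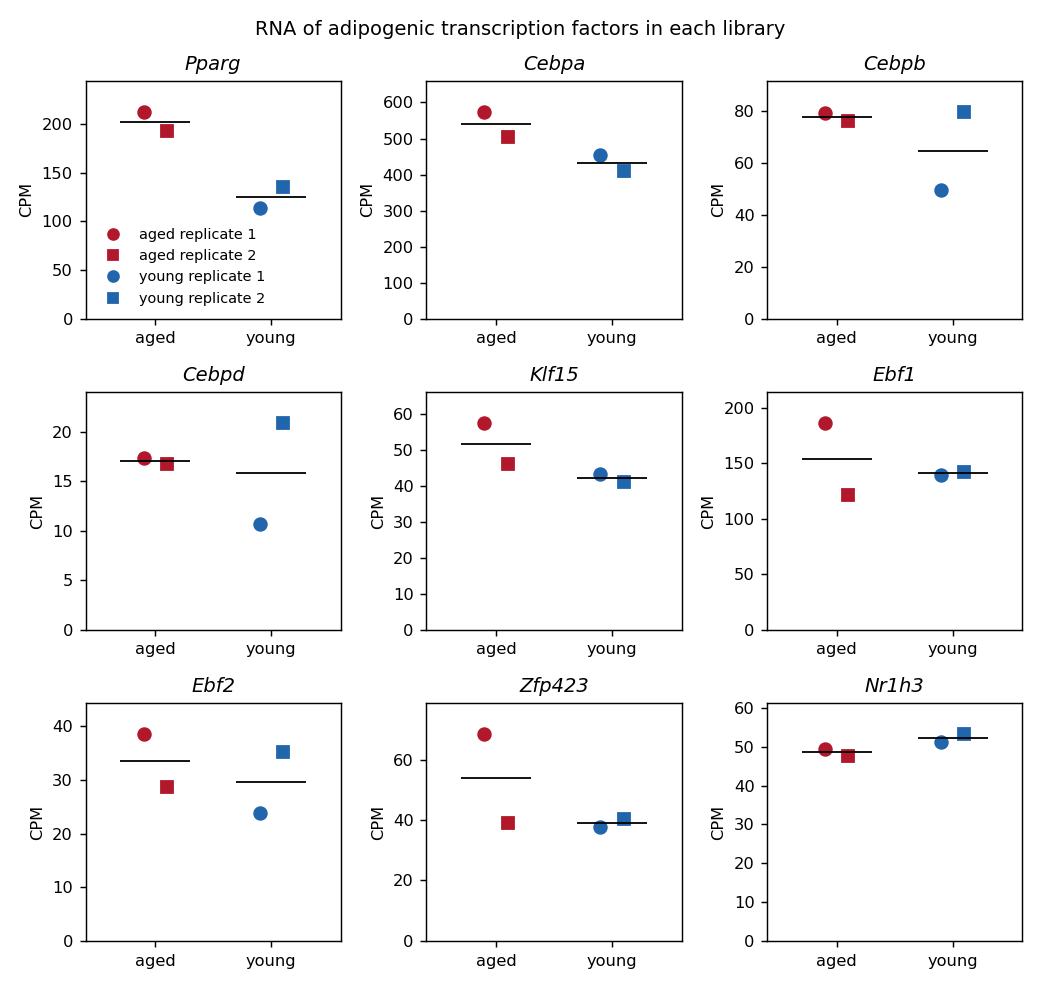
CPM of the 9 factors in each library, on a linear axis from 0, with aged samples in red, young samples in blue, and a line at the mean of each age (n = 2). Both aged points lie above both young points for Pparg, Cebpa and Klf15 and below them for Nr1h3, and the ages overlap for the other 5.

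Pparg (ENSMUSG00000000440, chromosome 6 of GRCm38, 115360951 to 115490399, plus strand), which encodes the nuclear receptor that adipocytes need to form and to persist, differed most between the ages. It was at 213 and 193 CPM in the aged samples and at 114 and 136 CPM in the young samples. Both aged samples were therefore above both young ones, and the gap between the ages exceeded the gap between replicates of either age. The fold was 1.63, with a 95% interval of 1.20 to 2.20, and a log2 fold change of 0.70 ± 0.16 (standard error). Over all genes tested this did not pass (edgeR, adjusted p = 0.404; DESeq2, adjusted p = 0.0609). With any 1 of the 4 libraries left out the log2 fold change of Pparg was between 0.58 and 0.84, so its direction rested on no single library. Its antisense neighbour Gm44079 had at most 2 counts in a library and no exonic overlap with it.

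RXR alpha, the partner of PPARG on DNA, followed the same pattern. Rxra was at 223 and 225 CPM in aged and at 119 and 140 CPM in young MFP. Its log2 fold change was 0.78 ± 0.15 (edgeR, adjusted p = 0.370; DESeq2, adjusted p = 0.0127). The coactivator of PPARG encoded by Ppargc1a was, of 107 genes in the lists of regulators and targets, the one whose profile over the 4 samples was most like that of Pparg. It was at 17.5 and 16.9 CPM in aged and at 9.73 and 11.1 CPM in young MFP, and its centred log2 CPM differed from that of Pparg by a root mean square of 0.04. Both Rxra and Ppargc1a are also active genes of skeletal muscle, whose markers were higher in the aged samples, and the part of muscle in these values was not tested. The related receptors differed less. Ppard was at 46.6 and 40.8 CPM in aged and at 36.2 and 39.7 CPM in young MFP, with a log2 fold change of 0.20 (95% interval -0.22 to 0.63). Ppara, the form of liver and oxidative tissues, was at 11.9 and 8.84 CPM in aged and at 8.95 and 7.78 CPM in young MFP, and its ages overlapped.

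Cebpa (ENSMUSG00000034957, chromosome 7, 35119293 to 35121928, plus strand), a gene of 1 exon whose product sustains Pparg in mature adipocytes, was the most abundant of the factors. Aged MFP held 573 and 505 CPM and young MFP 455 and 409 CPM, without overlap of the ages. The difference was small against its error, with a fold of 1.25 (95% interval 0.890 to 1.75) and a log2 fold change of 0.32 ± 0.18 (edgeR, adjusted p = 0.544). It lay between 0.21 and 0.41 with any 1 library left out. The antisense gene Gm45091, which shares 51 exonic bases with Cebpa, had 137 to 197 counts per library against 30175 to 46894 for Cebpa. Among the other factors, Klf15 had the profile closest to that of Cebpa over the 4 samples.

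The early C/EBP factors were set apart by 1 young library. Cebpb (ENSMUSG00000056501, chromosome 2, 167688915 to 167690418, plus strand) was at 79.3 and 76.4 CPM in aged MFP, and in young MFP at 79.7 CPM in replicate 2 and 49.8 CPM in replicate 1. Cebpd (ENSMUSG00000071637, chromosome 16, 15887286 to 15891031, plus strand) was at 17.4 and 16.7 CPM in aged MFP, and in young MFP at 20.9 CPM in replicate 2 and 10.7 CPM in replicate 1. For each gene the aged pair lay between the young samples, so the ages overlapped. The log2 fold changes were 0.27 ± 0.26 for Cebpb and 0.11 ± 0.37 for Cebpd (edgeR, adjusted p = 0.685 and 0.911). Without young replicate 1 they turned to -0.04 and -0.29, and without young replicate 2 they became 0.66 and 0.68. The 95% intervals of the folds ran from 0.730 to 1.98 for Cebpb and from 0.535 to 2.18 for Cebpd, so neither a lower nor a clearly higher level in aged MFP was resolved.

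Per1 and Fos, from the lists of glucocorticoid-induced and immediate early genes, also had their lowest value in young replicate 1. Per1, a clock gene induced by glucocorticoids, was the gene most like both Cebpb and Cebpd among the 107, at 165 and 167 CPM in aged MFP and, in young MFP, 105 CPM in replicate 1 and 185 CPM in replicate 2. Fos, an immediate early gene, was at 46.5 and 21.4 CPM in aged MFP and, in young MFP, 9.33 CPM in replicate 1 and 57.4 CPM in replicate 2. Without young replicate 1 the log2 fold change was -0.16 for Per1 and -0.76 for Fos. The immediate early genes as a list did not share this profile, since 6 of the 12 had both young samples above both aged ones, as 22.8% of all genes did. The glucocorticoid-induced list shared the low value only in its sum, of which Per1 is a part. Summed over its 12 genes, young replicate 1 was the lowest library at 677 CPM, and the other libraries ranged from 837 to 1004 CPM. Its genes were split between the young samples. Per1, Zbtb16, Sgk1, Klf9, Pdk4, Angptl4 and Errfi1 were lower in young replicate 1 than in young replicate 2. Fkbp5, Tsc22d3, Mt1, Mt2 and Ddit4 were higher there. How many genes of that list had their lowest value in young replicate 1 was not counted. Young replicate 1 was also the library with the B cell and T cell markers. It had the lowest markers of mammary epithelium, at 675 CPM against 1204 to 1508 CPM in the other libraries. Its pericyte and smooth muscle markers were the lowest as well, at 935 CPM against 1403 to 1470 CPM. The part of these cell types in the low values of young replicate 1 was not tested. Cebpg, a C/EBP family member without an activation domain, was at 97.9 and 98.4 CPM in aged and at 74.7 and 83.0 CPM in young MFP, with a log2 fold change of 0.32 ± 0.13 (edgeR, adjusted p = 0.495). Cebpe, the myeloid family member, had too few counts to be tested, at 0 to 0.108 CPM. Cebpb shares 312 exonic bases with Tmem189 on the other strand (2348 to 3226 counts per library), and Cebpd 562 with Spidr (1084 to 1172 counts). Reads on these stretches can be told apart only if the counting used the strand, which the sources used here do not state.

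Klf15 and Nr1h3 went in opposite directions, both with ages that did not overlap. Klf15 (ENSMUSG00000030087, chromosome 6, 90462576 to 90475238, plus strand) was at 57.6 and 46.1 CPM in aged and at 43.3 and 41.3 CPM in young MFP. Its log2 fold change was 0.29 ± 0.17 (95% interval -0.17 to 0.76; edgeR, adjusted p = 0.550), and it was 0.11 without aged replicate 1. Abca1, a cholesterol exporter, had the profile closest to that of Klf15 among the 107 genes, at 527 and 434 CPM in aged and 403 and 411 CPM in young MFP. Klf9, a family member that also promotes adipogenesis and is induced by glucocorticoids, differed more than Klf15. It was at 172 and 137 CPM in aged and at 73.2 and 91.5 CPM in young MFP, with a log2 difference of 0.90 ± 0.20 (edgeR, adjusted p = 0.398; DESeq2, adjusted p = 0.0357).

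Nr1h3 (ENSMUSG00000002108, chromosome 2, 91184061 to 91202834, minus strand) was the factor with the narrowest spread. It was at 49.6 and 47.5 CPM in aged and at 51.1 and 53.2 CPM in young MFP, so both aged samples were slightly lower. The fold was 0.930 with a 95% interval of 0.732 to 1.18 (log2 fold change -0.10 ± 0.13; edgeR, adjusted p = 0.737). With each library left out it stayed between -0.15 and -0.06, and scaled by total counts only it was -0.28. Nr1h2, which encodes LXR beta, was at 70.5 and 66.2 CPM in aged and at 61.2 and 61.7 CPM in young MFP, with a log2 fold change of 0.15 ± 0.12. The LXR target Pltp, a phospholipid transfer protein, was at 127 and 101 CPM in aged and at 44.9 and 49.1 CPM in young MFP (edgeR, adjusted p = 0.360), and it shares 495 exonic bases with Ctsa on the other strand. The exporter Abcg1, another LXR target, was at 40.0 and 35.3 CPM in aged MFP, and in young MFP 27.4 CPM in replicate 2 and 108 CPM in replicate 1, and its log2 fold change of -0.85 became 0.46 without young replicate 1.

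For Ebf1 and Zfp423 the aged replicates lay further apart than the young ones, and for Ebf2 the replicates of both ages lay apart. Ebf1 (ENSMUSG00000057098, chromosome 11, 44617317 to 45008091, plus strand) stood at 186 and 122 CPM in the first and second aged sample, which enclosed the young values of 140 and 142 CPM. Zfp423 (ENSMUSG00000045333, chromosome 8, 87661810 to 87959595, minus strand) was at 68.4 CPM in aged replicate 1, and aged replicate 2 at 39.2 CPM lay between the young samples at 37.8 and 40.3 CPM. Ebf2 (ENSMUSG00000022053, chromosome 14, 67233292 to 67430918, plus strand) was at 38.5 and 28.7 CPM in aged and at 23.8 and 35.3 CPM in young MFP. Aged replicate 1 was thus the highest library for all 3 genes, and the ages overlapped for each. The log2 fold changes were 0.13 ± 0.24 for Ebf1, 0.46 ± 0.31 for Zfp423 and 0.19 ± 0.28 for Ebf2 (edgeR, adjusted p = 0.840, 0.576 and 0.794). Without aged replicate 1 they were -0.22, -0.01 and -0.05. Without young replicate 1 that of Ebf2 was -0.07.

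Ebf1 is also a factor of B cells. It was at 140 CPM in young replicate 1, where the B cell factor Pax5 was at 102 CPM, and at 142 CPM in young replicate 2, where Pax5 was at 0.705 CPM, and the part of B cells in the Ebf1 counts was not tested. Ebf2 marks precursors of brown and beige fat. Ucp1, the uncoupling protein of such fat, was at 13.1 and 10.1 CPM in aged and at 21.8 and 18.1 CPM in young MFP (log2 fold change -0.78 ± 0.23; edgeR, adjusted p = 0.432). The brown and beige markers as a list leaned the other way, with 5 of 7 higher in aged MFP and a median of 0.53. The lower ones were Ucp1 and Dio2. By edgeR 0 were called, and by DESeq2 2 were called higher and 0 lower. Ppargc1a was among those 2, and it is also an active gene of skeletal muscle. Skeletal muscle markers were higher in aged MFP, and the part of muscle in this list was not tested. For Zfp423, the closest of the 107 genes was the lipid droplet gene Cidec, with a root mean square difference of 0.02. Cidec was at 933 CPM in aged replicate 1 and at 527 to 541 CPM in the other 3 libraries. Ebf3, the third EBF gene of this tissue, had a larger difference than Ebf1 and Ebf2, at 71.6 and 61.2 CPM in aged and at 43.4 and 50.6 CPM in young MFP (log2 fold change 0.50 ± 0.16; edgeR, adjusted p = 0.458). Zfp521, a close relative that opposes Zfp423, was at 37.9 and 34.6 CPM in aged MFP, and in young MFP 37.6 CPM in replicate 2 and 18.8 CPM in replicate 1, and its log2 fold change of 0.36 became -0.053 without the latter.

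**Figure D3:**
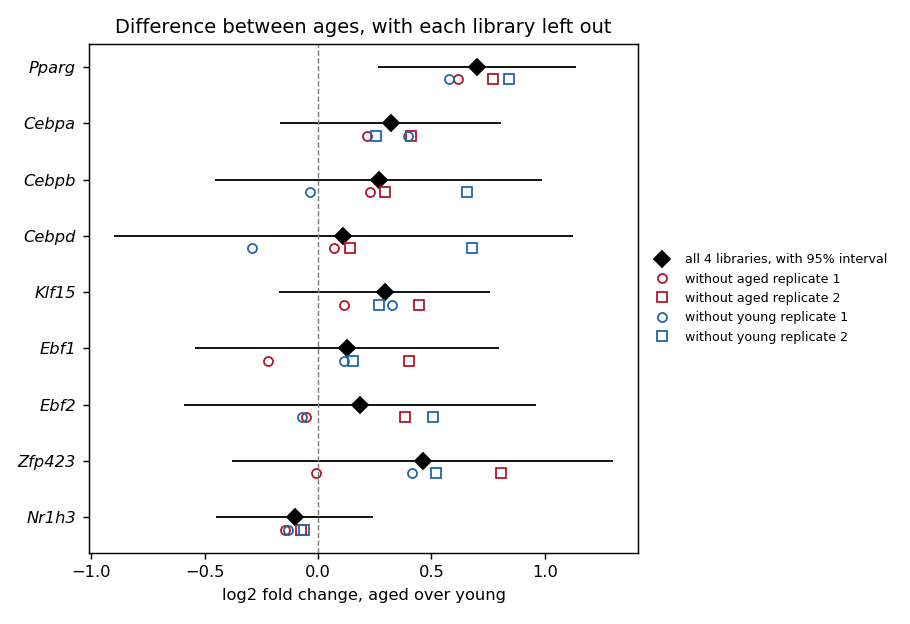
Log2 fold change, aged over young, of the 9 factors: black diamonds for all 4 libraries with the 95% interval, open symbols for the estimate with 1 library left out. The open symbols of Pparg, Cebpa and Klf15 stay above 0 and those of Nr1h3 below it, while Cebpb, Cebpd and Ebf2 cross 0 without young replicate 1 and Ebf1, Ebf2 and Zfp423 without aged replicate 1.

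Between genes, levels were compared as CPM per kilobase of merged exons. Over the 4 libraries the mean was 184 for Cebpa, 55.4 for Pparg, 47.4 for Cebpb, 20.0 for Nr1h3, 16.9 for Klf15, 15.1 for Ebf1, 8.28 for Zfp423, 4.56 for Ebf2 and 4.38 for Cebpd. Cebpa lay above 99.4% of the 22426 genes with a length, Pparg above 97.7%, and Cebpd, the lowest of the factors, above 59.3%. The mature adipocyte factors were therefore more abundant per length than the commitment factors. Ebf2 and Cebpd could not be ordered in either age, Pparg and Cebpb not in young MFP, and Nr1h3, Klf15 and Ebf1 not between neighbours in aged MFP, because the ranges of their samples overlapped. In aged MFP Pparg was at 72.0 and 65.2 CPM per kilobase and Cebpb at 52.7 and 50.8, while in young MFP Pparg was at 38.5 and 45.9 and Cebpb at 33.1 and 53.0.

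Ratios of 2 factors within a library do not depend on how libraries are scaled. The ratio of Nr1h3 to Pparg, as counts per kilobase, was 0.274 and 0.290 in the aged samples and 0.528 and 0.461 in the young samples. It was 1.75-fold higher in young MFP, without overlap. This ratio sets the factor with the lower estimate (log2 fold change -0.10) against the factor with the largest higher one (0.70). It therefore mostly restates the difference of Pparg and is no separate result. With 2 samples against 2, the exact two-sided permutation test gave p = 0.333, the smallest it can give. The log2 difference of this ratio, aged minus young, stayed between -0.91 and -0.71 with each library left out. The ratio of Pparg to Cebpa was 0.331 and 0.340 in aged and 0.223 and 0.296 in young MFP, 1.31-fold higher in aged MFP and again without overlap (exact permutation p = 0.333). It held less firmly, with a log2 difference of 0.39 that fell to 0.18 without young replicate 1. The ratios of Cebpb to Cebpa, of Cebpd to Cebpa and of Ebf2 to Ebf1 overlapped between the ages, each with an exact permutation p of 1. For these 3 ratios the young replicates enclosed the aged ones. The ratio of Cebpb to Cebpa, for instance, was 0.192 and 0.342 in young and 0.242 and 0.265 in aged MFP. Over the 5 ratios the Benjamini-Hochberg adjusted p was 0.833 for Nr1h3 to Pparg and for Pparg to Cebpa.

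**Figure D4:**
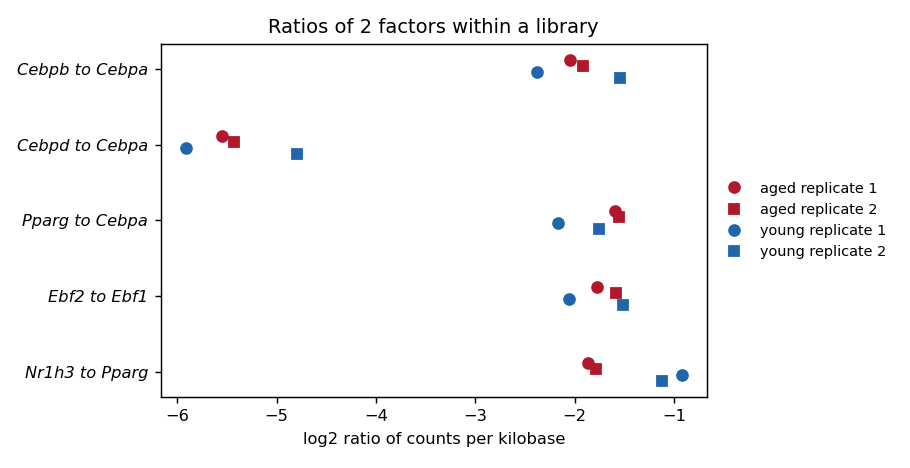
Log2 of 5 within-library ratios of counts per kilobase, 1 point per library, red for aged and blue for young, circles for replicate 1 and squares for replicate 2. The Nr1h3 to Pparg ratio separates the ages most clearly, and it mostly restates the difference of Pparg. The ratios that involve Cebpb, Cebpd or Ebf2 have aged points inside the range of the young ones.

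Adipocyte markers were themselves higher in aged MFP, with 10717 and 8709 CPM summed over the 10 genes in aged and 6826 and 7198 CPM in young samples. Set against the reads on these markers in the same library, Pparg was at 19.8 and 22.1 reads per 1000 marker reads in aged MFP. In young MFP it was at 16.7 and 18.8, with a log2 difference of 0.24. Both aged samples were above both young ones, but the step from 18.8 to 19.8 was smaller than the gap between replicates of either age. On the same measure Cebpa overlapped between the ages, at 53.5 and 58.0 in aged and 66.7 and 56.8 in young MFP. Klf15, Ebf1 and Nr1h3 were lower in both aged samples, Nr1h3 at 4.62 and 5.46 against 7.49 and 7.39, Klf15 at 5.37 and 5.29 against 6.35 and 5.73, and Ebf1 at 17.4 and 14.0 against 20.5 and 19.8. The remaining 4 factors overlapped. Because the marker reads were higher in aged MFP, a gene with equal CPM at both ages falls with age on this measure. By CPM, Klf15 and Ebf1 had higher estimates in aged MFP, with log2 fold changes of 0.29 and 0.13. The shares of all genes that are higher or lower in both aged samples on this measure were not counted. Ebf1, Klf15 and the early C/EBP factors are also made outside adipocytes, and several of the markers are targets of PPARG, so this measure depends on what the markers do.

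The genes that PPARG and C/EBP alpha activate in adipocytes leaned higher in aged MFP in 15 of 20 cases and lower in 5, by a median of 0.39 in log2, with 0 called by edgeR. The aged pair lay wholly above the young pair for 12 of the 20 and wholly below it for 1, beside 23.3% and 22.8% of all genes. Lep, which encodes leptin, differed most, at 503 and 314 CPM in aged and at 170 and 186 CPM in young MFP (fold 2.30; edgeR, adjusted p = 0.404; DESeq2, adjusted p = 0.0160). Adipoq, the adiponectin gene, was at 1141 and 777 CPM in aged and at 531 and 430 CPM in young MFP. Lep was the 1 gene of the list that DESeq2 called higher, and none (0) was called lower. The lipid droplet coat gene Plin1 barely separated the ages, at 1496 and 1019 CPM in aged and at 1002 and 1007 CPM in young MFP. Other targets were close between the ages, such as the fatty acid binding gene Fabp4, at 2287 and 1956 CPM in aged and 1865 and 1837 CPM in young MFP. The fatty acid transporter Cd36, at 1695 and 1334 CPM in aged and 1094 and 990.1 CPM in young MFP, lay between Lep and Fabp4 in its difference. Without aged replicate 1 the log2 fold changes were 0.81 for Lep, 0.68 for Adipoq, 0.34 for Cd36, 0.068 for Fabp4 and 0.008 for Plin1. Most of the adipocyte markers, Adipoq and Plin1 among them, are also on this list of targets, so the 2 lists are not independent.

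Of 20 other activators of adipogenesis, aged MFP had 13 higher and 7 lower, at a median of 0.26 and 0 called by edgeR. DESeq2 called 3 of them higher (Rxra, Klf9 and Ppargc1a) and 1 lower. The lower one was Egr2, an early inducer of Cebpb, at 5.34 and 4.42 CPM in aged and at 21.8 and 42.9 CPM in young MFP, with a log2 difference of -2.73 ± 0.41 (edgeR, adjusted p = 0.360; DESeq2, adjusted p = 2.22e-07). Of 17 family members of the 9 factors that could be tested, 14 were higher and 3 lower, with a median of 0.31, 0 called by edgeR and 1 called higher by DESeq2. The family member with the largest difference was Ebf4, low throughout at 3.95 and 2.82 CPM in aged and 1.27 and 1.82 CPM in young MFP. Of 20 repressors of adipogenesis, 13 were higher and 7 lower, with a median of 0.09 and 0 called by edgeR. The pseudokinase Trib3, at 9.40 and 18.4 CPM in aged and 3.92 and 5.20 CPM in young MFP, was the 1 repressor that DESeq2 called higher, and its relative Trib2 was at 28.8 and 28.0 CPM in aged and 58.0 and 34.6 CPM in young MFP, with a log2 fold change of -0.71 that was -0.29 without young replicate 1.

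Genes downstream of the other factors gave no call in edgeR either. Of 10 LXR targets tested, 8 were higher and 2 lower, with a median of 0.22, and DESeq2 called 1 higher (Pltp). Of 12 genes that glucocorticoids induce, 10 were higher and 2 lower, with a median of 0.24, and DESeq2 called 1 higher. The glucocorticoid response gene Fkbp5 was at 38.4 and 33.2 CPM in aged and at 35.6 and 23.3 CPM in young MFP, with overlap. Angptl4, an inhibitor of lipoprotein lipase, had a lower estimate in aged MFP, at 78.8 and 42.0 CPM in aged and 105 and 127 CPM in young MFP (edgeR, adjusted p = 0.479). Of 7 amino acid and glucose genes under KLF15, 6 were higher and 1 lower, with a median of 0.46 and 0 called by DESeq2. Among them Prodh, for proline breakdown, was at 47.3 and 26.4 CPM in aged and at 20.0 and 21.7 CPM in young MFP, and Aldh6a1, for valine breakdown, at 384 and 280 CPM in aged and 198 and 203 CPM in young MFP. Immediate early genes had a median of -0.21, with 5 higher and 7 lower, and DESeq2 called 1 higher. Egr1 was at 43.9 and 31.2 CPM in aged, and in young MFP 47.4 CPM in replicate 1 and 150 CPM in replicate 2, while Atf3 was at 6.93 and 11.2 CPM in aged and 2.89 and 4.19 CPM in young MFP.

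**Figure D5:**
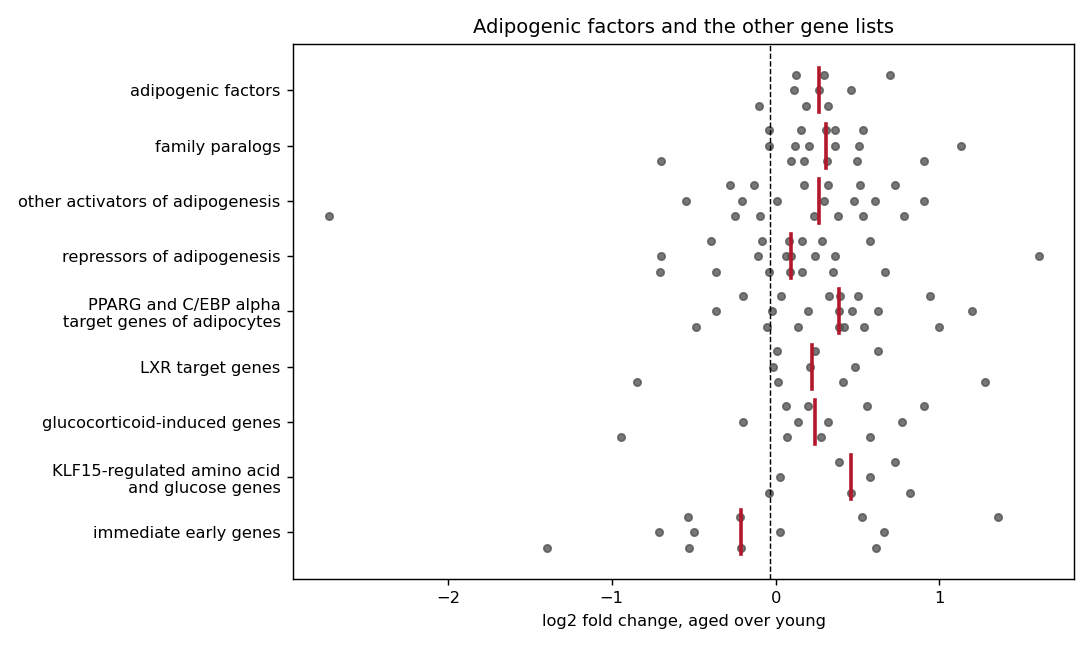
Log2 fold change, aged over young, of each gene tested (points) in the adipogenic factors and 8 other lists, with red bars at list medians and a dashed line at the median of all genes tested (-0.04). The factors have a median of 0.27 and the PPARG and C/EBP alpha targets 0.39, and the lowest point among the activators is Egr2 at -2.73.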

How the data were processed

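Total RNA of whole mouse MFP was sequenced in 2 aged and 2 young samples with a strand-keeping kit after removal of ribosomal RNA. The authors deposited raw read counts per gene, not normalized, with 1 column per sample. The submitters' processing notes name featureCounts, R 3.6.1 and GRCm38 (beside hg38). The aligner, annotation and strand setting are not given in the sources used here, and the study analysed the MFP with DESeq2. The groups and replicate numbers came from the sample titles.

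From the deposited counts, genes were kept by filterByExpr (22485 of 55487; 20682 had 0 counts in all samples), scaled by TMM, and tested for age by the quasi-likelihood test of edgeR 4.0.16 (limma 3.58.1, R 4.3.3) with Benjamini-Hochberg adjustment over all genes and a threshold of 0.05. DESeq2 1.42.0 was an alternative. Standard errors are the log2 fold change divided by the square root of F, and 95% intervals use the same statistic. Values after ± are standard errors, and p-values measure the spread between these samples, labelled biological replicates. Log2 CPM for profile likeness used a prior count of 2. The floor of 3 counts covers counting error only. Code was tested on simulated data.

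The factors and lists were chosen with earlier results of these data known. Genes named beside the factors were partners, relatives and targets fixed by name, the 2 largest log2 fold changes of each list at a mean of at least 1 CPM, and the gene most like each factor. Pax5, Ucp1 and the other marker values were picked after they were seen. Exon lengths and coordinates came from GENCODE M21 (GRCm38), which holds 55141 of the gene identifiers, and start regions from RefSeq (GRCm38.p6). Where a symbol is on several rows (114 symbols) the row with most counts was used. Alternatives were other scalings, filters, DESeq2, a replicate block, leaving out mitochondrial or muscle marker genes, and leaving out each sample. The crossed block, and setting factors against adipocyte marker reads, were added after seeing the data.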

Additional observations from a re-analysis of the deposited data

How the results depend on the processing

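The alternative values covered the factors, their ratios and the counts of calls. Of these, 178 kept their direction and side of the threshold (or moved by less than the spread), 8 reversed and 2 moved. A ratio with 1 of 2 samples left out always moves by less than the spread, so for ratios this outcome was fixed. Without young replicate 2 the log2 difference changed sign for Cebpb to Cebpa (-0.014 to 0.40) and Cebpd to Cebpa (-0.13 to 0.43). Without young replicate 1 it did so for Ebf2 to Ebf1 (0.10 to -0.17). Scaling by total counts only moved the median of all genes by -0.18 and gave Cebpd -0.072 and Ebf1 -0.041, which are 0.14 and 0.17 above that median. DESeq2 called 865 genes, where edgeR called 0. With each library left out in turn, where a lone sample is assumed to vary like the other age, log2 fold changes spanned -0.035 to 0.66 for Cebpb, -0.29 to 0.68 for Cebpd, -0.22 to 0.40 for Ebf1, -0.072 to 0.51 for Ebf2 and -0.0083 to 0.81 for Zfp423. The median of the 9 factors then ranged from 0.070 (without aged replicate 1) to 0.51 (without young replicate 2) and was 0.11 without young replicate 1. The cause of these shifts was not tested. Same-numbered samples deviated from their age means in opposite ways (r = -0.48 across genes), and the labels state no pairing. With the replicate block 0 genes were called and Pparg had a log2 fold change of 0.70. Pairing the samples crosswise instead, an alternative chosen once the data had been seen, also called 0 genes (2494 at an unadjusted p below 0.05, against 1346 with the block and 2371 without). The factors had at least 878 counts in each library, and 2 samples an age limit the precision.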

Other observations

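Markers of stromal progenitors, the cells in which Zfp423, Ebf1 and Ebf2 act, did not move as 1 group. Among 12 such genes the estimate was higher with age for 8 and lower for 4 (median 0.31 in log2), and edgeR called 0. DESeq2 called 1 of them higher and 1 lower. The growth factor receptor Pdgfra was at 135 and 97.4 CPM in aged and at 60.1 and 80.4 CPM in young MFP. Decorin (Dcn) was at 272 and 248 CPM in aged and at 89.0 and 118 CPM in young MFP, whereas the collagen gene Col1a1 was at 503 and 350 CPM in aged and at 1213 and 1368 CPM in young MFP. These 3 genes were named after their values were seen. Thy1 and Dpp4 were highest in young replicate 1, at 171 and 49.0 CPM, against 25.4 to 33.4 CPM and 7.33 to 13.2 CPM in the other libraries, with log2 fold changes of -1.75 and -1.79 that became 0.13 and -0.56 without that library, and both are also genes of T cells, whose markers were highest in that library.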
